A study of Mus musculus with 9 samples.

Results

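The 10 genes described here encode the core of the circadian clock and its nearest targets: Clock, Arntl (Bmal1), Per1, Per2, Cry1, Cry2, Nr1d1 (Rev-erb alpha), Nr1d2 (Rev-erb beta), Dbp and Bhlhe40 (Dec1). They were found by their symbols among 28932 genes in the deposited count tables, and each gene was represented by its transcript entry with the highest mean count. All 10 were among the 18257 genes with a count in at least 1 library and among the 12372 genes with enough counts to be tested. The samples were 9 RNA sequencing libraries of total RNA from mouse hepatoma cells, labelled Hepa 1 WT in the source field and HC1C in the cell line field. Of these, 3 were controls, which the treatment label calls untreated while the protocol names a vehicle. A further 3 libraries came from cells given FICZ at 10 nM and 3 from cells given tryptamine (TA in the labels) at 50 uM. All were taken after 6 h of treatment, so the data hold 1 time and show no rhythm or phase. Nothing in the labels tells separate cultures from repeat libraries of 1 culture, and the p-values therefore measure only the spread between libraries, which may be technical.

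In the mammalian clock, CLOCK and BMAL1 (the product of Arntl) bind E-box sequences as a pair and activate the Per, Cry, Nr1d and Dbp genes. PER and CRY proteins then repress that pair, and the REV-ERB receptors repress Arntl in a further loop. CLOCK and BMAL1 belong to the same protein family (bHLH-PAS) as the aryl hydrocarbon receptor (AhR) and its partner ARNT. FICZ is a tryptophan photoproduct that activates the AhR, and tryptamine is a tryptophan-derived monoamine that the title of the series names as an AhR proligand. The comparisons show whether clock transcripts differed after 6 h with either compound.

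Letters that both kinds of factor can read were sought in the DNA before the transcription start of these genes. A RefSeq promoter table (GRCm38.p6) had entries for 8 of the 10 genes in 12 windows, and Per2 and Bhlhe40 had none. The 250 bases before each start were searched on both strands for the E-box CACGTG, an E-box variant CACGTT, the xenobiotic response element TNGCGTG that the AhR with ARNT reads, its core GCGTG, the D-box TTATGNAA that DBP reads, and the ROR element core AGGTCA that REV-ERB receptors read. Every TNGCGTG match is also a GCGTG match. Of all 32851 windows in the table, CACGTG was in 6.02%, CACGTT in 3.85%, TNGCGTG in 4.10%, TTATGNAA in 3.07%, AGGTCA in 14.0% and GCGTG in 28.2%. Cry1 and Per1 held the E-box, and Cry1, Cry2 and Nr1d1 held the variant. TNGCGTG was found before Cry1 and Nr1d1, the D-box before Per1, and AGGTCA before Clock, Per1 and Nr1d2. The core GCGTG was found before 7 of the 8 genes, Arntl being the exception. Counted by window, as in the shares above, the E-box was in 2 of the 12 windows, the variant in 3 and TNGCGTG in 2. The D-box was in 1, AGGTCA in 3 and GCGTG in 8. The window before Cyp1a1, the standard AhR target gene, held GCGTG but no TNGCGTG, which says only that these letters are not in that window. The windows before Cry1, Nr1d1 and Per1 are shown because they hold the matches to TNGCGTG and to CACGTG. Per1 had a further window, not shown, that held GCGTG and none of the other sequences searched. Capitals mark the matches to the E-box, its variant, the xenobiotic response element and the D-box on either strand, and each window is written 5′ to 3′ in the direction of the gene. Those of Cry1 (chr10:85185055-85185304) and Nr1d1 (chr11:98775378-98775627) lie on the minus strand and that of Per1 (chr11:69098699-69098948) on the plus strand.
Cry1: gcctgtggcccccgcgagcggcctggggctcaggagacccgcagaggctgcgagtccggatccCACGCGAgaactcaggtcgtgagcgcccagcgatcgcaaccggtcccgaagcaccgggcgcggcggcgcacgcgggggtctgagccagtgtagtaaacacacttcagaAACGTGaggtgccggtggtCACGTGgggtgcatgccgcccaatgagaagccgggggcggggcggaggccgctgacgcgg
Nr1d1: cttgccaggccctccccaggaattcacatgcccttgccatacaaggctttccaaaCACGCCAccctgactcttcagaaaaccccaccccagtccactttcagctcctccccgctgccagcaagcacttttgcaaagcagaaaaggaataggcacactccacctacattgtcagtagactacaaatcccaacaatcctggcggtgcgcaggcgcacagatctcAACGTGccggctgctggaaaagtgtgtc
Per1: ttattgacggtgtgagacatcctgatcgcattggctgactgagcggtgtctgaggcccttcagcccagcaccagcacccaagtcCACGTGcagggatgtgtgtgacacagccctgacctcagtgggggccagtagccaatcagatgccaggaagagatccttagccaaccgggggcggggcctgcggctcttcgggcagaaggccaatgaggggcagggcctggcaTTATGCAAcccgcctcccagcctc
In the Cry1 window the E-box begins 60 bases before the start, the variant 79 and the xenobiotic response element 187. In the Nr1d1 window the variant begins 28 bases and the xenobiotic response element 195 bases before the start. In the Per1 window the E-box begins 166 bases and the D-box 24 bases before the start. A match is a description of the letters and not a bound site.

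The libraries held between 11594791 and 16715845 counts over genes. Cyp1a1 stood at 63.9, 55.4 and 58.3 CPM (counts scaled to the effective library size) in the controls, at 1022, 1035 and 951.1 CPM with FICZ, and at 674.3, 681.5 and 753.8 CPM with tryptamine. It rose 16.9-fold with FICZ (adjusted p = 5.03e-09) and 11.9-fold with tryptamine (adjusted p = 1.66e-08), both by edgeR's quasi-likelihood test, the test used throughout with Benjamini-Hochberg adjustment over all genes tested. A gene is said to have passed where its adjusted p was under 0.05. Control replicate 3 was unlike the rest: its correlation with the other libraries over genes was 0.954 to 0.960, against at least 0.987 among the other 8. Relative to controls 1 and 2 it was higher for short transcript entries (median log2 difference 0.63 over 1142 genes with entries up to 1000 bases) and lower for long ones (-0.85 over 1325 genes over 6000 bases). The spread between libraries estimated over all genes by edgeR (a coefficient of variation) was 0.156 in the fit to all 9 libraries and 0.0748 when this one was left out. Differences of the clock genes from the controls are therefore given with and without it. Of the hepatocyte markers Alb, Afp, Krt8, Krt18 and Trf had at least 10 counts in every library, and Ttr, Apoa1 and Hnf4a were at 0 in all of them. Serpina1a and Fgb held only 7 and 2 counts over all libraries. The summed level of the 10 hepatocyte markers was 4860 to 6743 CPM in the controls, 4388 to 4551 CPM with FICZ and 4618 to 4815 CPM with tryptamine. The keratins Krt8 and Krt18 made up most of this sum, with control means of 2138 and 2509 CPM. Those of Alb, Afp and Trf were 253.7, 165.4 and 461.2 CPM. The 8 fibroblast and stellate markers summed to 1375 to 1677, 1608 to 1731 and 1606 to 1747 CPM in the control, FICZ and tryptamine groups. Of these, 5 had at least 10 counts in every library and Lrat was at 0. Col1a2 and Thy1 held only 11 and 1 counts over all libraries. The 5 bile duct markers, with Epcam at 0 and 3 with at least 10 counts in every library, summed to 1114 to 1550, 1046 to 1098 and 1019 to 1098 CPM. For the 7 blood and endothelial markers, 2 of which had at least 10 counts in every library and of which Hbb-b1 and Cdh5 were at 0, the sums were 15.1 to 20.2, 15.5 to 18.6 and 14.0 to 19.0 CPM. Control replicate 3 departed in the most abundant hepatocyte, fibroblast and bile duct markers. Krt18 stood at 2113, 2116 and 3298 CPM in controls 1 to 3, Col1a1 at 1170, 1214 and 878.2 CPM, and Krt7 at 935.4, 913.4 and 1322 CPM. The control ranges of these sums thus include the departure of that library. The part of these differences in the clock gene values was not tested.

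None of the 10 clock genes passed in any comparison. With FICZ 0 of 10 passed, where 0.113% of all genes tested did (14 of 12372). With tryptamine 0 of 10 passed, where 0.00808% of all genes did (1 of 12372, Cyp1a1). Between FICZ and tryptamine 0 of 10 passed, where 0% of all genes did. At an unadjusted p under 0.05 the number of clock genes was also 0 of 10 in each of the 3 comparisons, against 8.12%, 5.15% and 1.73% of all genes. In bulk RNA such as this, fewer expressing cells and less RNA per cell cannot be told apart. DESeq2's Wald test on the same counts passed 0 of 10 in each comparison, against 0.436%, 0.097% and 0.0808% of all genes. The authors' deposited table gave no clock gene entry an adjusted p under 0.05 in any comparison, its lowest being 0.0518 for an entry of Clock with FICZ. None of the 10 was among the 81 genes that the authors' deposited table lists as higher with FICZ, or the 22 it lists as higher with tryptamine.

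Without control replicate 3 the count was again 0 of 10 in each comparison, while 0.805% of all genes passed with FICZ, 0.199% with tryptamine and 0.136% between the compounds. At an unadjusted p under 0.05, Arntl and Per2 then came up with FICZ (2 of 10, against 9.97% of all genes) and with tryptamine (2 of 10, against 6.57%), and none came up between the compounds (0 of 10, against 5.97%). With FICZ the median size of the log2 difference was 0.168 over the 10 genes and 0.175 over all genes, and without control replicate 3 it was 0.105 and 0.106. With tryptamine it was 0.222 and 0.159, or 0.108 and 0.092 without that library.

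**Figure D1:**
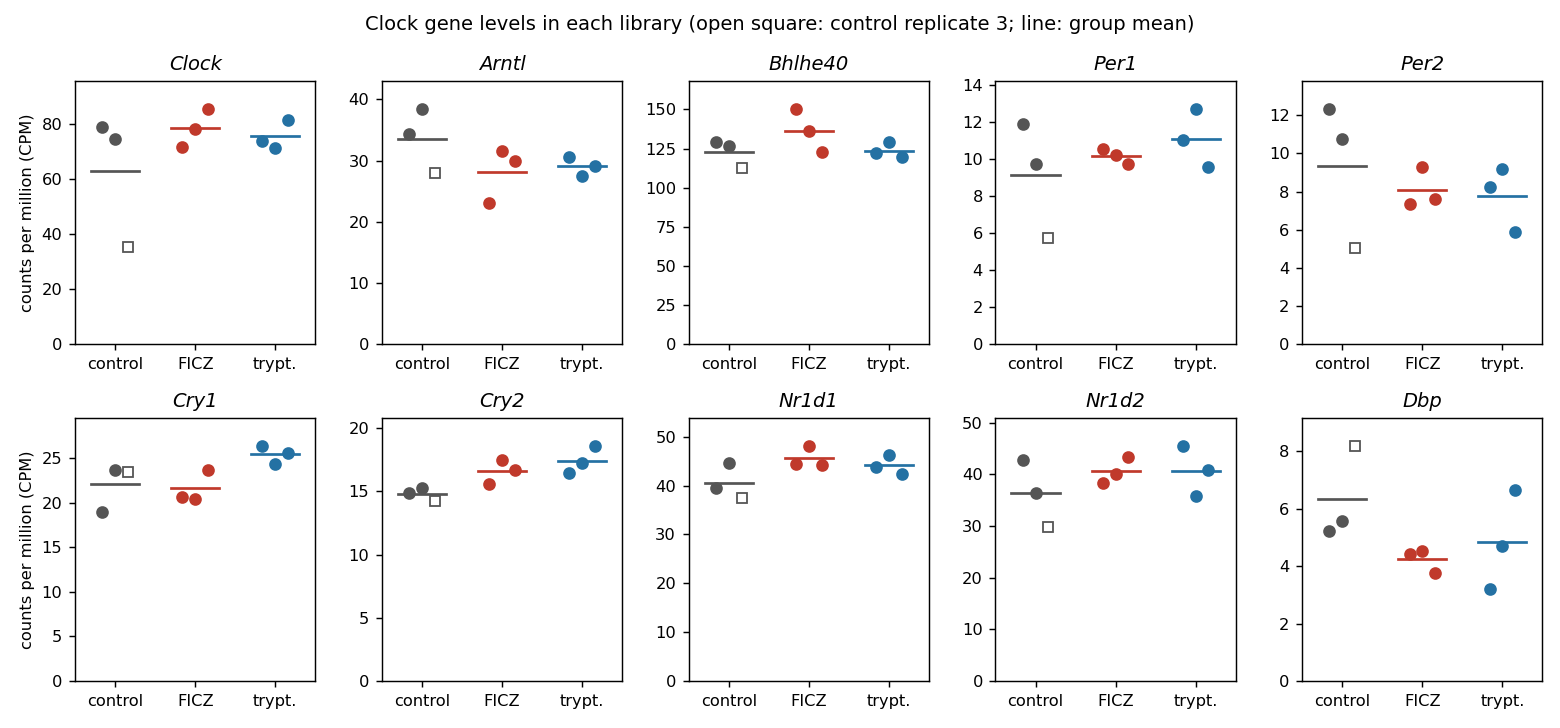
Levels of the 10 clock genes in CPM (vertical axes from 0) in each of the 9 libraries, by group. Points are libraries, the open square is control replicate 3, and lines are group means. Clock, Per1, Per2, Cry2, Nr1d1, Nr1d2 and Bhlhe40 were lowest and Dbp highest in control replicate 3, and the groups overlap for most genes.

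The members differed widely in abundance. Scaled to the length of the transcript entry, and over the 8 libraries without control replicate 3, Bhlhe40 had the highest level at 41.6 ± 3.17 CPM per kilobase (SD, n = 8). Nr1d1 followed at 16.3 ± 0.935 CPM per kilobase. Arntl, Clock, Nr1d2 and Cry1 formed a middle range at 10.45 ± 1.55, 8.90 ± 0.573, 8.70 ± 0.735 and 7.63 ± 0.876 CPM per kilobase, and the means ± SD of neighbours in this range overlapped. Cry2 stood lower at 4.13 ± 0.312 CPM per kilobase. Dbp at 2.83 ± 0.639 and Per1 at 2.29 ± 0.243 CPM per kilobase also overlapped in this way, and Per2 was the lowest at 1.51 ± 0.349. Of the E-box targets of the CLOCK pair, Nr1d1 thus stood above the activators Clock and Arntl on this scale, Nr1d2 and Cry1 near them, and Cry2, Dbp, Per1 and Per2 below them. The place of Nr1d1 is uncertain: its gene overlaps Thra on the other strand, and the use of strand in the counting is not given.

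Clock and Arntl encode the activating pair. Clock stood at 79.0, 74.6 and 35.3 CPM in controls 1 to 3, at 71.5, 78.2 and 85.4 CPM with FICZ, and at 73.9, 71.4 and 81.4 CPM with tryptamine. Control replicate 3 lay at 0.460 of the mean of the other controls, and the other 8 libraries all lay between 71.4 and 85.4 CPM. The fitted log2 difference of Clock with FICZ was 0.31 ± 0.24 (SE, 95% interval -0.21 to 0.84, adjusted p = 0.619), and 0.03 ± 0.09 (-0.16 to 0.22) without that library. With tryptamine it was 0.26 ± 0.24 (-0.26 to 0.79, adjusted p = 0.741), and -0.03 ± 0.09 (-0.21 to 0.16) without it. Leaving out control replicate 3 thus took the difference of Clock close to 0 in both comparisons.

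Arntl stood at 34.4, 38.4 and 28.0 CPM in the controls, at 23.1, 31.5 and 29.9 CPM with FICZ and at 30.5, 27.5 and 29.2 CPM with tryptamine. Controls 1 and 2 were above all 6 treated libraries, and control replicate 3 lay within the treated range. The log2 difference was -0.25 ± 0.15 with FICZ (-0.59 to 0.08, adjusted p = 0.605) and -0.21 ± 0.15 with tryptamine (-0.55 to 0.13, adjusted p = 0.741). Without control replicate 3 it was -0.36 ± 0.12 with FICZ (-0.62 to -0.11, unadjusted p = 0.00689, adjusted p = 0.258) and -0.33 ± 0.12 with tryptamine (-0.58 to -0.07, unadjusted p = 0.0145, adjusted p = 0.657), in edgeR's test. These intervals lie below 0, and neither difference passed adjustment over all genes. Over all 18 settings the adjusted p of Arntl ran from 0.258 to 0.835 with FICZ and from 0.561 to 0.907 with tryptamine. Both comparisons use the same controls, so the values are not independent of each other.

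Per1 and Per2 encode repressors of that pair, and both have low levels here. Per1 stood at 11.9, 9.70 and 5.72 CPM in the controls, at 10.5, 10.2 and 9.71 CPM with FICZ and at 11.02, 12.67 and 9.55 CPM with tryptamine. Control replicate 3 was the lowest of the 9 libraries and the treated libraries lay within or close to the range of controls 1 and 2. The log2 difference of Per1 was 0.15 ± 0.24 with FICZ and 0.27 ± 0.23 with tryptamine (edgeR adjusted p = 0.799 and 0.741), and -0.09 ± 0.17 and 0.03 ± 0.17 without control replicate 3.

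Per2 stood at 12.3, 10.7 and 5.03 CPM in the controls, at 7.33, 9.29 and 7.59 CPM with FICZ and at 8.23, 9.19 and 5.87 CPM with tryptamine. All 6 treated libraries lay below controls 1 and 2 and above control replicate 3. The log2 difference was -0.22 ± 0.30 with FICZ (-0.87 to 0.43, adjusted p = 0.757) and -0.28 ± 0.30 with tryptamine (-0.94 to 0.37, adjusted p = 0.750). Without control replicate 3 it was -0.51 ± 0.20 with FICZ (-0.91 to -0.11, unadjusted p = 0.0152, adjusted p = 0.340) and -0.58 ± 0.20 with tryptamine (-0.98 to -0.17, unadjusted p = 0.00700, adjusted p = 0.601), in edgeR's test. Fitted against controls 1 and 2, Per2 thus stood at 0.703 of their level with FICZ and 0.670 with tryptamine, and neither difference passed adjustment. Over all 18 settings its adjusted p ran from 0.340 to 0.974 with FICZ and from 0.601 to 0.948 with tryptamine. Its entry held 59 counts in control replicate 3 and 91 to 182 in the other libraries.

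Cry1 and Cry2 encode the cryptochromes, the repressing partners of the PER proteins. Cry1 stood at 19.0, 23.7 and 23.5 CPM in the controls, at 20.7, 20.5 and 23.6 CPM with FICZ and at 26.4, 24.4 and 25.6 CPM with tryptamine. The tryptamine libraries lay above all controls and all FICZ libraries. The log2 difference of Cry1 was 0.21 ± 0.13 for tryptamine over control (-0.07 to 0.49, adjusted p = 0.741), -0.03 ± 0.13 for FICZ over control (-0.31 to 0.25) and -0.24 ± 0.13 for FICZ over tryptamine (-0.52 to 0.04, unadjusted p = 0.0903 and adjusted p = 1.0 by edgeR). Control replicate 3 lay at 1.10 times the mean of the other controls, and without it the value was 0.25 ± 0.13 for tryptamine and 0.02 ± 0.13 for FICZ.

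Cry2 stood at 14.9, 15.3 and 14.2 CPM in the controls, at 15.6, 17.5 and 16.7 CPM with FICZ and at 16.5, 17.2 and 18.6 CPM with tryptamine. All 6 treated libraries lay above all 3 controls, by a small margin. The log2 difference was 0.17 ± 0.12 with FICZ (-0.10 to 0.43, adjusted p = 0.614) and 0.23 ± 0.12 with tryptamine (-0.03 to 0.50, adjusted p = 0.741), and 0.14 ± 0.14 and 0.21 ± 0.14 without control replicate 3. Cry2 and Dbp were the only 2 clock genes whose FICZ and control libraries did not overlap, Cry2 higher and Dbp lower, where 8.22% of all genes were higher and 7.40% lower without overlap. With tryptamine, Cry1 and Cry2 were higher without overlap and no clock gene was lower, where the shares over all genes were 5.19% and 4.87%. Between the compounds Cry1 alone did not overlap (lower with FICZ, against 5.85% of all genes, and 5.48% higher). Without control replicate 3, Arntl and Per2 joined as lower without overlap with each compound, where 14.1% of all genes were lower with FICZ and 9.84% with tryptamine. The shares higher without overlap were then 13.9% and 10.2%, for Cry2 alone with FICZ and for Cry1 and Cry2 with tryptamine.

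Nr1d1 and Nr1d2 encode the REV-ERB receptors, heme-binding repressors of Arntl. Nr1d1 stood at 39.5, 44.7 and 37.4 CPM in the controls, at 44.5, 48.1 and 44.3 CPM with FICZ and at 43.8, 46.3 and 42.5 CPM with tryptamine. The groups overlapped through control replicate 2. The log2 difference was 0.17 ± 0.11 with FICZ (-0.07 to 0.41, adjusted p = 0.605) and 0.12 ± 0.11 with tryptamine (-0.12 to 0.36, adjusted p = 0.741). With control replicate 3 left out it was 0.12 ± 0.10 and 0.07 ± 0.10. Nr1d1 overlaps Thra on the other strand in the annotation, and 13 further transcript entries carry both names and were left out. The sources used here do not say whether the counting used strand, so the level of Nr1d1 is uncertain. Thra itself lay at 0.551 of the other controls in control replicate 3, against 0.887 for Nr1d1, and its log2 difference with FICZ was 0.23 ± 0.20 with that library and 0.00 ± 0.11 without it.

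Nr1d2 stood at 42.8, 36.4 and 29.8 CPM in the controls, at 38.4, 40.0 and 43.3 CPM with FICZ and at 45.5, 35.8 and 40.9 CPM with tryptamine. The treated libraries lay within or near the range of controls 1 and 2, and control replicate 3 was the lowest library. The log2 difference was 0.16 ± 0.15 with FICZ and 0.17 ± 0.15 with tryptamine (edgeR adjusted p = 0.658 and 0.741), and 0.04 ± 0.11 with either compound without control replicate 3.

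Dbp encodes a D-box activator whose transcription follows the clock closely in liver. It stood at 5.21, 5.57 and 8.19 CPM in the controls, at 4.41, 4.53 and 3.76 CPM with FICZ and at 3.20, 4.71 and 6.65 CPM with tryptamine. The FICZ libraries lay below all controls, and the tryptamine libraries spread over and below the range of the controls. The log2 difference with FICZ was -0.57 ± 0.28 (-1.20 to 0.06, unadjusted p = 0.0699, adjusted p = 0.601 by edgeR), the largest in size among the 10 genes in that comparison. Control replicate 3 was at 1.52 times the mean of controls 1 and 2, and without it the value was -0.35 ± 0.27 (-0.90 to 0.21, adjusted p = 0.737). With tryptamine the values were -0.37 ± 0.28 (adjusted p = 0.741) and, without that library, -0.15 ± 0.27. Dbp had 47 to 103 counts per library, the fewest of the 10 genes in sum over the libraries, and its interval with FICZ reached beyond a 2-fold difference.

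Bhlhe40 encodes a bHLH repressor that competes for E-boxes. It stood at 129.4, 126.6 and 112.3 CPM in the controls, at 150.1, 136.2 and 122.7 CPM with FICZ and at 122.1, 129.3 and 119.4 CPM with tryptamine. The groups overlapped in every comparison. Its log2 difference was 0.15 ± 0.11 with FICZ (-0.08 to 0.38, adjusted p = 0.612), 0.01 ± 0.11 with tryptamine (-0.22 to 0.24, unadjusted p = 0.929 by edgeR) and 0.14 ± 0.11 for FICZ over tryptamine (-0.09 to 0.37, adjusted p = 1.0). When control replicate 3 was left out it was 0.09 ± 0.08 with FICZ and -0.05 ± 0.08 with tryptamine.

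**Figure D2:**
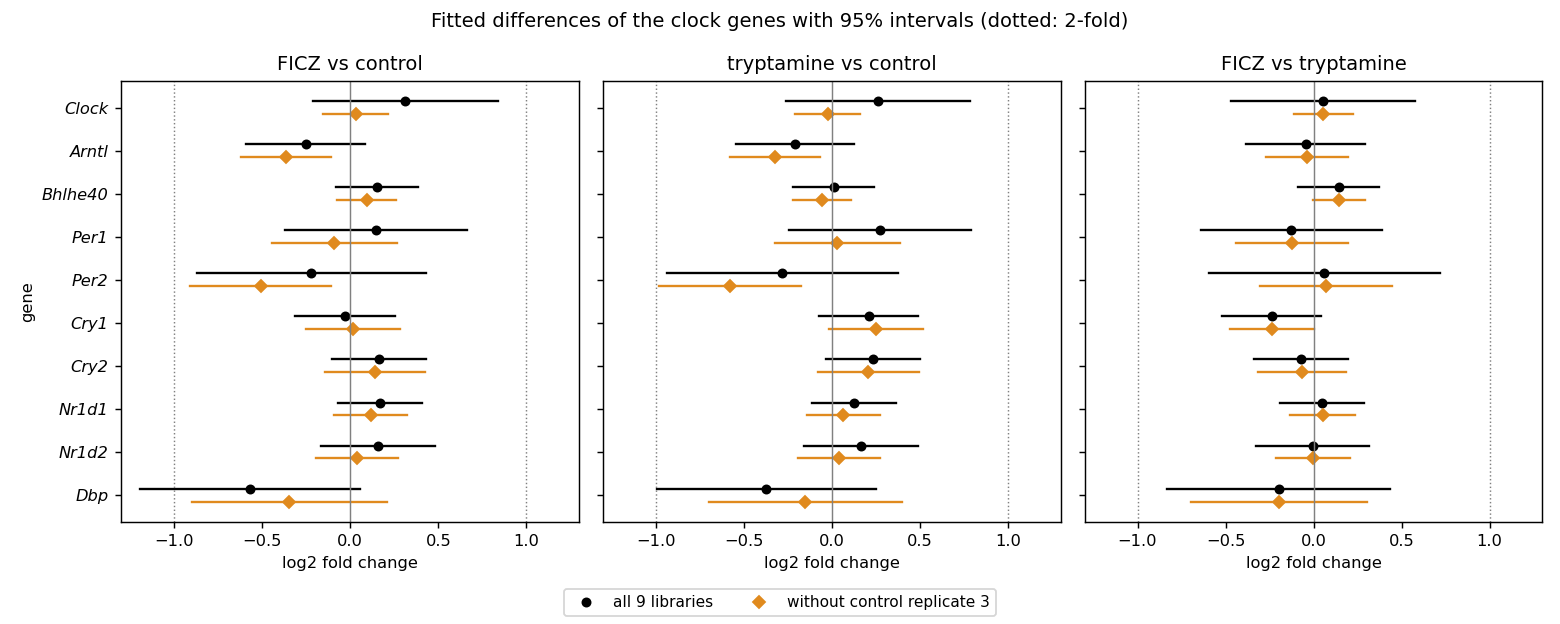
Fitted log2 fold changes (horizontal axes) of the 10 clock genes in the 3 comparisons, with lines for 95% intervals. Black circles are the fit to all 9 libraries and orange diamonds the fit without control replicate 3; dotted lines mark 2-fold. With all 9 libraries every interval spans 0, and with control replicate 3 left out those of Arntl and Per2 lie below 0 in both comparisons with the controls.

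A p above the threshold does not show that a transcript kept its level, and the intervals give the size of difference that the data allow. With all 9 libraries the 95% interval lay within a 2-fold change for 9 of 10 clock genes with FICZ, Dbp being the exception, for 10 of 10 with tryptamine and for 10 of 10 between the compounds. Without control replicate 3 it did so for 10 of 10 in each comparison. A 1.5-fold bound held for 5, 6 and 7 of the 10 genes in the 3 comparisons with all libraries, and for 7, 8 and 9 without control replicate 3. The FICZ and tryptamine doses differ (10 nM and 50 uM), so the comparison between them is of these treatments and not of equal amounts. For FICZ over tryptamine the largest log2 differences in size were those of Cry1, at -0.24, Dbp, at -0.20 ± 0.29, and Bhlhe40, at 0.14, and the others lay between -0.13 and 0.06.

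Control replicate 3 departed within clock genes as well as between them. The deposited tables list 77 transcript entries of the 10 genes, of which 72 had a mean of at least 20 counts. Control replicate 3 was below the mean of controls 1 and 2 in 57 of these 72 and above it in 15. In Clock, an entry of 18 exons (2475 bases) had 324, 296 and 7 counts in controls 1 to 3, while an entry of 1 exon (1768 bases) had 247, 244 and 271. Over the entries of Clock, the CPM ratio of control replicate 3 to the other controls ran from 0 to 2.04. In Per1 the whole-length Ensembl entry had 172, 133 and 67 counts, the one ending 3664 bases before the 3′ end of the gene had 93, 90 and 13, and a short entry of 3 exons ending 8912 bases before it had 26, 20 and 4. The CPM ratio of control replicate 3 to the other controls was thus 0.550 for the whole-length entry and 0.178 and 0.218 for the entries that end before the 3′ end. In Dbp, all 7 entries gave ratios above 1, from 1.35 to 1.61, and the entry chosen has 1678 bases, the shortest among the entries chosen for the 10 genes.

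**Figure D3:**
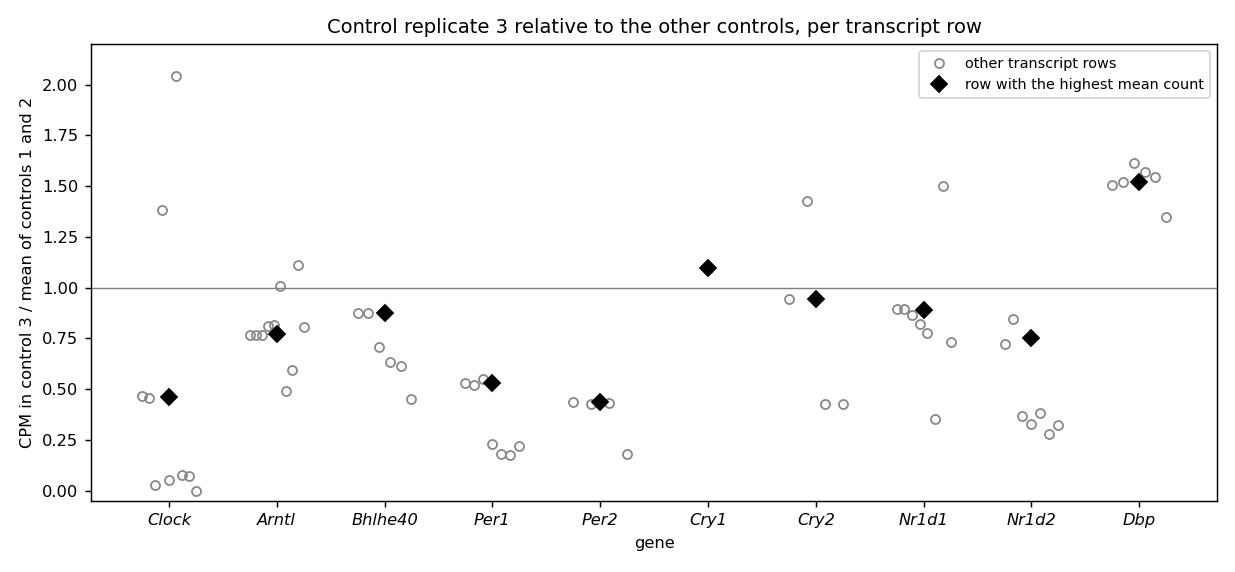
CPM in control replicate 3 divided by the mean of controls 1 and 2 (vertical axis, linear) for the 72 transcript entries of the clock genes with a mean of at least 20 counts. Diamonds are the entry used for each gene and circles the others. Entries of Clock spread from 0 to 2.04, those of Per1 and Per2 all lie under 1, and those of Dbp all lie over 1.

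Against controls 1 and 2 alone, the entries of a gene with at least 20 counts on average gave values of 1 sign in some genes and of both signs in others. For Arntl, the log2 ratio of FICZ to these controls ran from -0.50 to -0.07 over 11 entries and that of tryptamine from -0.44 to -0.03. For Per2 they ran from -0.53 to -0.10 and from -0.58 to -0.33 over 5 entries. For Cry2 they ran from 0.10 to 0.21 and from 0.21 to 0.24 over 5 entries, and for Dbp from -0.51 to -0.23 and from -0.52 to -0.10 over 7. The entries of Nr1d1 went both ways, from -0.20 to 0.27 with FICZ and from -0.19 to 0.22 with tryptamine over 9 entries, as did those of Clock (-0.05 to 0.30 and -0.14 to 0.20 over 10) and Bhlhe40 (-0.11 to 0.17 and -0.07 to 0.15 over 7). Those of Nr1d2 did so with tryptamine (-0.11 to 0.13 over 8). The entries of a gene share reads, so they do not repeat the measurement.

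Ratios of 2 clock genes within a library do not depend on the scaling between libraries. The log2 ratio of Nr1d1 to Arntl, the repressor over its target, was 0.20, 0.22 and 0.42 in the controls, 0.94, 0.61 and 0.57 with FICZ and 0.52, 0.75 and 0.54 with tryptamine. All 6 treated libraries lay above all controls in this ratio. Such a gap was common: the ratio to Arntl was higher without overlap for 25.1% of the other 12371 genes with FICZ and for 27.4% with tryptamine, and it was lower for 0.372% and 0.299%. A gap in this ratio is therefore not particular to Nr1d1, whose level is itself uncertain through its overlap with Thra. The log2 ratio of Dbp to Arntl was -2.43 ± 0.57 in the controls, -2.73 ± 0.31 with FICZ and -2.64 ± 0.57 with tryptamine (SD, n = 3 each), and that of Per1 to Arntl was -1.94 ± 0.38, -1.46 ± 0.28 and -1.40 ± 0.25. The log2 ratio of Per2 to Cry1 was -0.63, -1.15 and -2.22 in the controls, -1.50, -1.14 and -1.64 with FICZ and -1.68, -1.41 and -2.13 with tryptamine. These 3 ratios overlapped between the groups, and control replicate 3 was at an end of the control range in each.

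**Figure D4:**
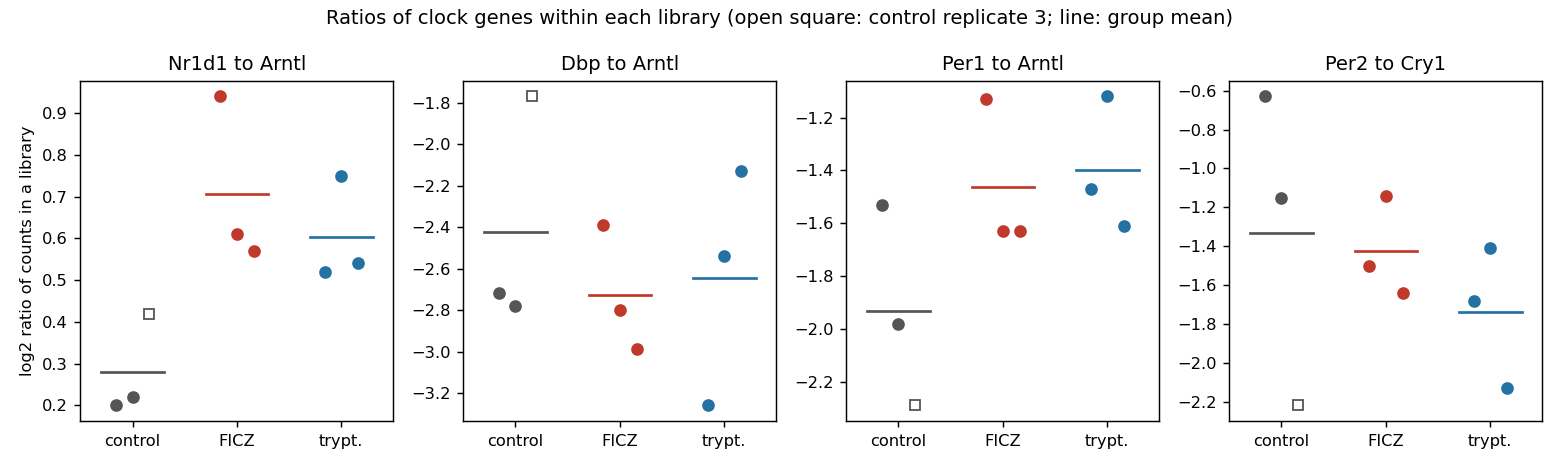
Log2 ratio of the counts of 2 clock genes within each library (vertical axes, which do not start at 0), by group; the open square is control replicate 3 and lines are group means. In the ratio of Nr1d1 to Arntl the 6 treated libraries lie at 0.52 or more and the controls at 0.42 or less, and the other ratios overlap.

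Of 25 further clock genes, which include the paralogs Per3 and Arntl2, the receptor Rora, the D-box factors Tef, Hlf and Nfil3 and the kinases and ligases that act on clock proteins, 22 were tested and 0 passed in each comparison by edgeR, with and without control replicate 3, or by DESeq2. At an unadjusted p under 0.05 edgeR gave 1 with FICZ, 1 with tryptamine and 0 between the compounds, where 8.12%, 5.15% and 1.73% of all genes did so. The fit without control replicate 3 gave 2, 5 and 0, against 9.97%, 6.57% and 5.97%. Npas2, the paralog of Clock, Rorb and Bhlhe41 had 0 counts in all libraries. With FICZ the median log2 difference of the 22 was -0.004 (11 above 0 and 11 below), against -0.006 over all genes tested, and -0.064 (9 above 0 and 13 below) without that library. The smallest p-values were those of Prkaa1 (an AMPK subunit that phosphorylates CRY1), Ciart (a repressor of the CLOCK pair) and Rora (an activator of Arntl). Their log2 differences with FICZ were 0.35 ± 0.15, -0.71 ± 0.37 and 0.49 ± 0.25 (edgeR adjusted p = 0.601, 0.605 and 0.605), and 0.18, -0.88 and 0.28 without control replicate 3. Prkaa1 was at 181.9 CPM in control replicate 3 and 264.8 to 326.2 CPM in the other libraries. Ciart was low throughout, at 1.96 ± 0.567 CPM in the controls, 1.19 ± 0.256 with FICZ and 1.21 ± 0.427 with tryptamine (SD, n = 3 each). With tryptamine the genes with the smallest p-values were Prkaa1, Ciart and Gsk3b, at log2 differences of 0.34, -0.72 and 0.30, and of 0.16, -0.89 and 0.06 without control replicate 3. Gsk3b was at 109.4 CPM in that library and 196.4 to 217.7 CPM in the other 8. Between the compounds Per3 had the smallest p-value, at a log2 difference of -0.61. Its entry held 23 to 28 counts per library with FICZ and 34 to 42 with tryptamine. None of these genes passed.

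Of 18 output genes with known clock control in liver or other tissues, 13 were tested. In edgeR's fit to all 9 libraries 0 passed in any comparison, and 5, 1 and 1 had an unadjusted p under 0.05 with FICZ, with tryptamine and between the compounds, against 8.12%, 5.15% and 1.73% of all genes. These counts were 6, 2 and 3 without control replicate 3, against 9.97%, 6.57% and 5.97%. The median log2 difference was 0.24 with FICZ (9 above 0 and 4 below) and 0.12 with tryptamine (8 above 0 and 5 below), against -0.006 and 0.004 over all genes tested. Without control replicate 3 it was 0.25 and 0.12, against 0 over all genes in both comparisons. Por, the reductase that supplies electrons to cytochromes P450, stood at 145.8, 155.1 and 129.2 CPM in the controls, 218.5, 224.6 and 198.2 CPM with FICZ and 167.1, 177.5 and 154.4 CPM with tryptamine. The FICZ libraries of Por lay above all others. Its log2 difference with FICZ was 0.58 ± 0.10 (adjusted p = 0.108) and passed without control replicate 3 (0.51 ± 0.08, adjusted p = 0.000236), as did that for FICZ over tryptamine (adjusted p = 0.0100, against 1.0 with all libraries). In the fit without control replicate 3, 1 of 13 output genes thus passed in each of these comparisons, against 0.805% and 0.136% of all genes. Por passed in 3 of 18 settings with FICZ, those being that fit, DESeq2's Wald test and the length-dependent offsets, and its adjusted p ran from 0.000180 to 0.562. Insig2 and Lpin1, which act in sterol and lipid synthesis, differed by 0.31 ± 0.10 and 0.57 ± 0.21 with FICZ (edgeR adjusted p = 0.601 each), and by 0.27 ± 0.09 and 0.37 ± 0.16 without control replicate 3. Cdkn1a differed by 0.24 ± 0.10 with FICZ, and by 0.30 ± 0.08 without that library (edgeR adjusted p = 0.601 and 0.0699). Lpin1 is among the genes that the authors' deposited table lists as higher with FICZ, at their mean log2 fold change of 1.21. That mean is over transcripts, whereas the values here are of 1 entry, so the measures differ. With tryptamine Lpin1, Klf9 and Por had the smallest p-values, at 0.51, 0.53 and 0.21, and at 0.30, 0.23 and 0.14 without control replicate 3. Klf9 was at 18.4 CPM in that library and 40.2 to 50.7 CPM in the other 8. Between the compounds Noct and Alas1 followed Por, at -0.34 and 0.27.

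Of 16 bHLH-PAS relatives and AhR partners, 11 were tested and Tiparp alone passed, with FICZ (1 of 11, against 0.113% of all genes). With tryptamine and between the compounds 0 of 11 passed, against 0.00808% and 0% of all genes. Those at an unadjusted p under 0.05 by edgeR numbered 1 in each of the 3 comparisons, against 8.12%, 5.15% and 1.73% of all genes. The fit without control replicate 3 gave 2, 1 and 1, against 9.97%, 6.57% and 5.97%. Tiparp, an AhR target that represses the receptor, stood at 32.5, 33.8 and 33.8 CPM in the controls, 52.4, 54.6 and 59.9 CPM with FICZ and 43.1, 44.5 and 51.6 CPM with tryptamine. It rose by 0.74 ± 0.11 on the log2 scale with FICZ (adjusted p = 0.0388), and passed in 7 of 18 settings, over which its adjusted p ran from 1.02e-06 to 0.267. With tryptamine the value was 0.48 ± 0.11 (adjusted p = 0.741, and 0.0591 without control replicate 3), followed in p by Npas1 (0.79 ± 0.60) and Ncoa1 (0.33 ± 0.26). These last values were 0.37 ± 0.54 and 0.03 ± 0.13 without control replicate 3, and Ncoa1 was at 11.1 CPM in that library against 21.0 to 27.4 CPM in the other 8. Ahr stood at 22.8 ± 4.30 CPM in the controls, 20.4 ± 1.88 with FICZ and 23.5 ± 1.72 with tryptamine, and Arnt at 59.5 ± 10.1, 67.2 ± 5.26 and 64.9 ± 6.59 (SD, n = 3 each). Between the compounds Tiparp, Ahr and Hsp90ab1 had the smallest p-values, at 0.26, -0.21 and -0.04.

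Of 16 immediate early and glucocorticoid response genes, a group that includes Per1, 15 were tested and 0 passed in each comparison by edgeR, with and without control replicate 3, or by DESeq2. At an unadjusted p under 0.05 edgeR gave 2 with FICZ, 2 with tryptamine and 0 between the compounds, against 8.12%, 5.15% and 1.73% of all genes. In the fit without control replicate 3 there were 6, 5 and 3, against 9.97%, 6.57% and 5.97%. In the fit to all 9 libraries Fosl1, Egr1 and Sgk1 had the smallest p-values with FICZ, at log2 differences of 0.39 ± 0.11, 0.40 ± 0.15 and 0.16 ± 0.08 (edgeR adjusted p = 0.574, 0.601 and 0.605). They were at 0.38, 0.35 and 0.13 without control replicate 3. With tryptamine the smallest were those of Fosl1, Sgk1 and Klf4, at 0.37, 0.21 and 0.21, or 0.35, 0.18 and 0.15 without that library. Between the compounds they were those of Fos, Egr1 and Fosb, at 0.70, 0.33 and 0.87. Fos held 36 to 56 counts per library with FICZ and 22 to 31 with tryptamine, and Fosb 16 to 19 and 5 to 11. Without control replicate 3, Ier3, Fosl1 and Ier2 led with FICZ, at 0.51, 0.38 and 0.33 (edgeR adjusted p = 0.0612, 0.087 and 0.258). With tryptamine Fosl1, Ier2 and Ier3 then led, at 0.35, 0.32 and 0.36 (edgeR adjusted p = 0.344, 0.655 and 0.655). The glucocorticoid target Fkbp5 stood at 47.0 ± 4.42, 41.7 ± 1.86 and 45.5 ± 2.32 CPM in controls, FICZ and tryptamine (SD, n = 3 each).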

How the data were processed

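Transcript levels of 9 libraries in 3 groups were taken from tables of 189660 transcript entries. Per the file headers, the deposited values are counts of reads per entry and library, whole numbers without normalization. Beside the counts the authors deposited their p-values, raw and adjusted, and their log2 fold changes between groups. The submitters' processing notes name DESeq. Aligner, build, counting rule and use of strand: not given in the sources used here.

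The entry with the highest mean count over the libraries stood for each gene, because the entries of a gene appear to share reads. The 26853 entries without a gene ID, which held 3.56 to 4.23% of the counts, were left out. Of 5653 entries that name several loci, 928 were assigned by their RefSeq identifier. The 10 members and all further gene lists were chosen with earlier results of these data known.

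All libraries entered 1 fit in edgeR 4.0.16 (R 4.3.3) with TMM scaling, filterByExpr, a term for group alone and quasi-likelihood F tests, with Benjamini-Hochberg adjustment over the 12372 genes kept. The SE was taken from the log2 fold change and its F statistic. CPM are counts scaled to the effective library size. Per length, CPM were divided by the length of the entry. Alternatives were DESeq2 1.42.0 size factors and its Wald test, other filters on low counts, fits to the 6 libraries of a pair, sums over entries, the replicate number as a block, length-dependent offsets, and leaving out each library. The scripts were tested on counts simulated with a common spread, that of the fit without control replicate 3. No simulated library departed from the rest, so that test does not cover a departure such as that of control replicate 3. All 10 members were named, with Cyp1a1 as the check of treatment, and from each further list the genes that passed (up to 5) or else the 3 with the smallest p. The further named genes Afp, Alb, Arnt, Cdkn1a, Col1a1, Col1a2, Fgb, Fkbp5, Ier2, Ier3, Krt7, Krt8, Krt18, Serpina1a, Thra, Thy1 and Trf and those listed at 0 counts were chosen after their values were seen.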

Additional observations from a re-analysis of the deposited data

How the results depend on the processing

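The number of clock genes passing was 0 of 10 in each comparison in all 18 settings, and the lowest adjusted p of any of them was 0.258 (Arntl with FICZ, without control replicate 3). The number of all genes passing moved more: with FICZ, 14 became 54 by DESeq2's Wald test, 26 with no filter on low counts, 2 with only the 6 libraries of the pair, 4 with sums over transcript entries and 52 with length-dependent offsets. With tryptamine, 1 became 12 by DESeq2's Wald test, 2 with no filter, 2 with sums and 6 with the offsets. Between the compounds, 0 became 10 by that test, 17 with only the 6 libraries and 5 with the offsets. Leaving out each library in turn gave 4 to 101 genes with FICZ, 1 to 25 with tryptamine and 0 to 17 between the compounds, and the highest value in each came without control replicate 3. The cause of these moves was not tested.

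Several members changed sign between settings, and not only those with differences near 0. In the fit to all 9 libraries Per2 was at -0.22 with FICZ, Clock at 0.26 with tryptamine and Dbp at -0.20 between the compounds. Over the fits that leave out 1 library, the log2 difference with FICZ ran from -0.51 to 0.022 for Per2, from -0.13 to 0.029 for Cry1 and from -0.091 to 0.38 for Per1. Cry1 was at 0.016 without control replicate 3, at 0.001 without FICZ replicate 1 and at 0.009 without FICZ replicate 2. With tryptamine it ran from -0.025 to 0.45 for Clock, the lowest without control replicate 3, and from -0.054 to 0.045 for Bhlhe40 (-0.023 without tryptamine replicate 2, and -0.003 with length-dependent offsets). Between the compounds it ran from -0.089 to 0.082 for Nr1d2, -0.13 to 0.08 for Arntl, -0.11 to 0.20 for Per2, -0.013 to 0.11 for Clock and -0.43 to 0.10 for Dbp. Among these, Nr1d2 was at 0.032 without FICZ replicate 1 and at 0.005 without FICZ replicate 2, and Per2 at -0.054 without FICZ replicate 2. Nr1d2 was at 0 with DESeq2 size factors and with its Wald test, and at 0.028 with sums over entries. None of these passed.

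The labels do not say whether equal replicate numbers share a culture or day. Deviations from group means had correlations of -0.058 to 0.116 between same-numbered libraries of different groups, and of -0.122 to 0.102 between differently numbered ones. For FICZ with tryptamine they were 0.054, 0.044 and 0.116 for equal numbers and -0.122 to 0.079 for different ones. The deviations of the controls include the departure of control replicate 3, so these values cannot decide whether the numbers pair the libraries. With the replicate block 4 genes passed with FICZ, 1 with tryptamine and 0 between the compounds, 0 of 10 clock genes passed in each, and the log2 difference of Nr1d2 between the compounds was 0.004. The depth limits Dbp, Per1 and Per2 most, with 47 to 103, 67 to 176 and 59 to 182 counts per library.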
